A study of Mus musculus with 13 samples.

Results

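Thy1, Nefl, Nefm, Sncg, Nrn1, Pou4f2, Isl1, Mapt, Gap43 and Slc17a6 are 10 genes widely used to mark retinal ganglion cells, and their RNA was followed across tip, stalk and nonvascular samples of the mouse retina. Every probe that is not a control and that carries one of these names, through its RefSeq identifier or the symbol in its description, was taken: 13 probes for the 10 genes, of 41174 probes for 33567 genes on the array. Thy1, Pou4f2 and Slc17a6 had 2 probes each. All 10 genes passed the filter on dim signals, among 32042 genes that did.

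The study compared samples labelled tip (n = 6) and stalk (n = 4), the leading and trailing parts of growing vessel sprouts, with nonvascular retina as the control (n = 3). Each sample was labelled with Cy5 (red) after linear amplification and hybridised beside Universal Mouse Reference RNA, which carried Cy3 (green) on every array, so no dyes were swapped. The labels give no strain, age, genotype or treatment, and do not say how the cells were collected or which samples share an animal, so the p-values measure only the spread between these samples, which may be technical.

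Ganglion cells are the output neurons of the retina. Their cell bodies lie in the innermost nuclear layer, directly beneath the superficial vessels that spread over the retina of the newborn mouse, and their axons run over that surface to the optic nerve. They release glutamate, and they carry large amounts of the neurofilaments, tubulin partners and growth proteins of long axons. In the embryo their fate is set by transcription factors among which Pou4f2 and Isl1 act together.

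Promoter sequences of the genes that the comparisons turn on are shown first, because these genes differed together between the vessel samples and the retina. RefSeq's table for GRCm38.p6 held 4 of the 10 genes, with 5 windows of 250 bases that end just before a transcription start site. They were searched on both strands for a site bound by POU4 factors (ATAATTAAT, read as ATTAATTAT on the other strand), for the homeodomain core TAATTA that lies inside it, and for the core of the RE1 element, through which neuronal genes are silenced in other cells. The windows below are those of Slc17a6, Sncg and Isl1, 5′ to 3′, with the POU4 site in capitals.
Slc17a6, second start site, chr7:51624387-51624636, plus strand: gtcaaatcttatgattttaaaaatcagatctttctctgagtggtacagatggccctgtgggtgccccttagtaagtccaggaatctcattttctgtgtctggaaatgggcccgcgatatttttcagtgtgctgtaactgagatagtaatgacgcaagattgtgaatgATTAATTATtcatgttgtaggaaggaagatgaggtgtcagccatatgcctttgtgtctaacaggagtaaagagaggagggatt
Slc17a6, first start site, chr7:51621580-51621829, plus strand: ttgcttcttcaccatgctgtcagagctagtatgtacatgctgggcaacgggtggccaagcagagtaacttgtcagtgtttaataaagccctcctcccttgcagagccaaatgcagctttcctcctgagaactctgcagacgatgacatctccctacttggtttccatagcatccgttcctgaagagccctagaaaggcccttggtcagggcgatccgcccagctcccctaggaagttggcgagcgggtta
Sncg, chr14:34374670-34374919, minus strand: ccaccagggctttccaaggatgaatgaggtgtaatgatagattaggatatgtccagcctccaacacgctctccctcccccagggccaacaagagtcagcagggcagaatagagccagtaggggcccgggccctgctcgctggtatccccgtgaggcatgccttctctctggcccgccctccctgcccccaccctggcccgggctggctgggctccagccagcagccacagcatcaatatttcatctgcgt
Isl1, chr13:116309689-116309938, minus strand: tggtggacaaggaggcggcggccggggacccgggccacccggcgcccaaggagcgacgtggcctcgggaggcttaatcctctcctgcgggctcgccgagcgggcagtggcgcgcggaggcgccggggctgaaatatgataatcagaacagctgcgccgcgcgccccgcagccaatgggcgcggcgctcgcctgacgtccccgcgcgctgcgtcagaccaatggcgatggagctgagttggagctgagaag
The window of the second Slc17a6 start site held the POU4 letters once, 74 bases before the start site, and with them the homeodomain core. Of 32851 promoter windows of this length, 0.259% held the POU4 letters, 4.84% the homeodomain core and 0.0457% the RE1 core. None of the other 4 windows, that of Pou4f2 included, held any of the 3 motifs. These are matches of letters in short windows, and the arrays measured no binding.

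Except for Pou4f2, which was dim in every group, the ganglion cell genes had clearly higher ratios in nonvascular retina than in both vessel samples. All 10 were lower in tip than in nonvascular retina at an adjusted p under 0.05, Pou4f2 by its brighter probe alone, and none was higher, where 16.8% of all genes tested were lower and 11.1% higher. In stalk, 9 of 10 were lower than in nonvascular retina and none was higher, against 18.6% and 11.2% of all genes, with Pou4f2 the exception. The median log2 difference of the 10 genes was -2.72 for tip minus nonvascular retina and -3.19 for stalk minus nonvascular retina, and the median over all genes was -0.01 and 0.00. Every tip array lay below every nonvascular array for all 10 genes, which held for 16.8% of all genes, and every stalk array did so for 9, which held for 21.4%. Because these are bulk samples, fewer ganglion cells and less RNA per cell cannot be told apart.

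Differences between tip and stalk were smaller. Nrn1 was higher in tip than in stalk, and it was the only one of the 10 called there, where 1.46% of all genes were called higher and 1.32% lower. For 9 of 10 genes the tip mean was the higher one, with a median log2 difference of 0.50, and 16335 of all 32042 genes had a higher tip mean. At an unadjusted p under 0.05, 5 of the 10 genes were higher in tip and none was lower, and 5777 of all genes passed in either direction. The tip and stalk arrays did not overlap for Nrn1 and Sncg, in both with tip higher, which held for 2.73% of all genes. All these differences are of log2 ratios of sample over reference, tested with limma over all genes, and their errors are standard errors from the fit.

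**Figure D1:**
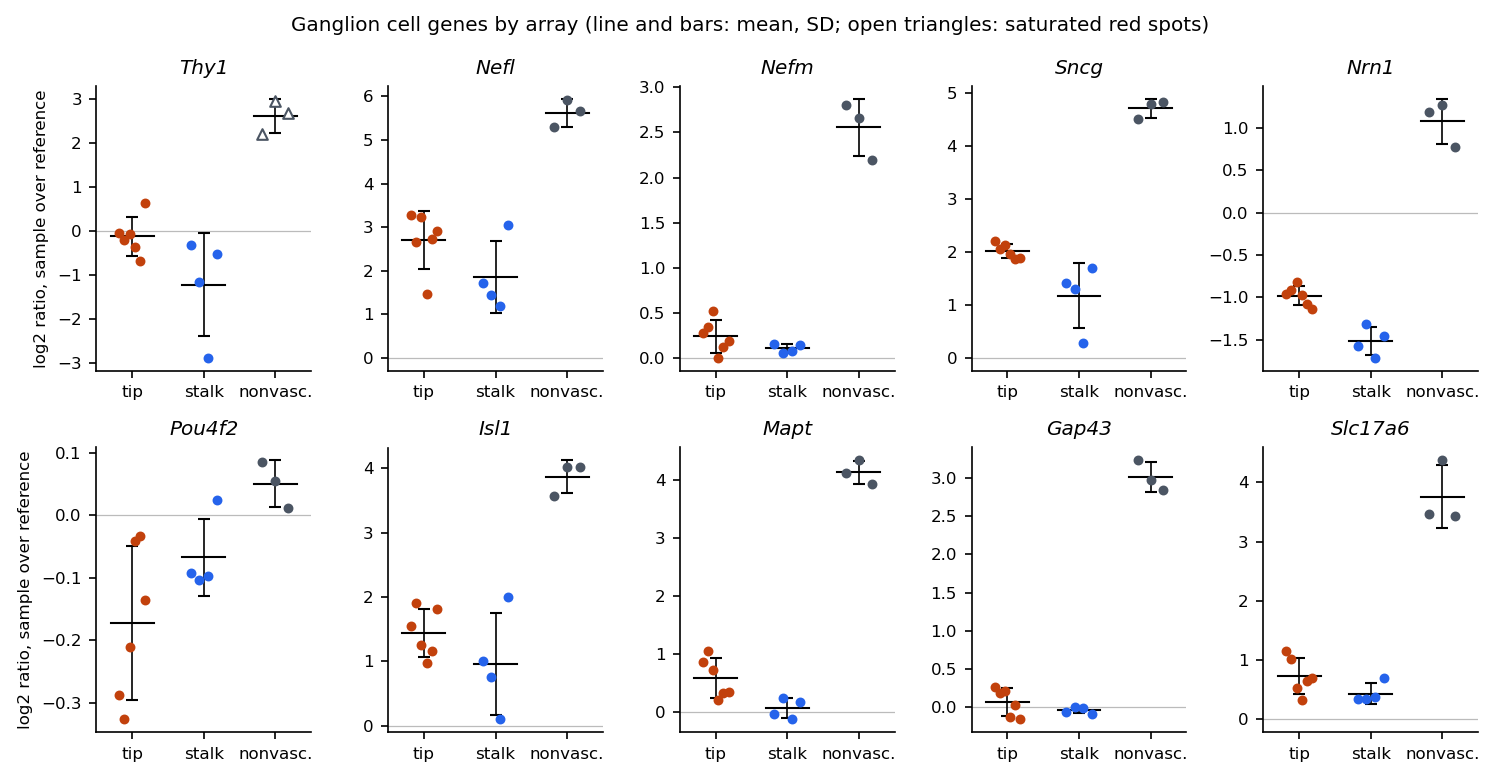
Log2 ratio of sample over reference (vertical axes, each with its own scale) of the 10 genes on each tip, stalk and nonvascular array, 1 point an array, with the group mean and SD. The nonvascular arrays lie above all tip arrays in every panel and above all stalk arrays in every panel but Pou4f2; open triangles mark the 3 saturated Thy1 spots.

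The arrays themselves were not equally bright. Per array, the red signal above background had a median of 105 to 292 on tip, 98.1 to 141 on stalk and 166 to 282 on nonvascular arrays. Stalk arrays were scanned before the other groups and nonvascular arrays after 5 of the 6 tip arrays, so the groups and the order of scanning cannot be told apart. Tip replicate 5 was scanned alone on a later day. Of the 169 spots of the 10 genes, 164 were well above background in red, 163 in green, 3 were saturated in red and none in green. The 3 saturated spots were those of the brighter Thy1 probe on the nonvascular arrays. Against nonvascular retina, 17 of 18 endothelial genes were higher in tip and 16 of 18 in stalk, and 11 and 12 of 12 pericyte genes. Of all genes, 11.1% were higher in tip and 11.2% in stalk. The endothelial cadherin Cdh5 had log2 ratios of 4.08 ± 0.33 in tip, 4.21 ± 0.17 in stalk and 0.45 ± 0.20 in nonvascular retina (SD, n = 6, 4 and 3). Pecam1, another defining endothelial gene, had 0.11 ± 0.11 in tip, -0.04 ± 0.13 in stalk and -0.16 ± 0.08 in nonvascular retina, a small difference in tip that passed the test (limma, adjusted p = 0.018) and none in stalk that did (adjusted p = 0.333).

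The first group of genes encodes nuclear factors. Pou4f2, known as Brn3b, is a POU-domain factor that ganglion cells need for their differentiation and survival. Its log2 ratios were -0.33 to -0.03 in tip (median -0.17), -0.10, -0.10, -0.09 and 0.02 in stalk, and 0.09, 0.05 and 0.01 in nonvascular retina. The 3 groups lay within less than 0.5 log2 units of each other, although no tip array reached the lowest nonvascular array. The difference was -0.22 ± 0.07 for tip minus nonvascular retina (limma, adjusted p = 0.028), -0.12 ± 0.07 for stalk minus nonvascular retina (adjusted p = 0.281) and -0.10 ± 0.06 for tip minus stalk (adjusted p = 0.416).

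Pou4f2 was the one gene of the 10 that was dim in every group. The red signal of its brighter probe was 81 to 131 in tip, 87.1 to 107 in stalk and 124 to 157 in nonvascular retina, over local backgrounds of 52 to 57. Its other probe placed nonvascular retina lowest, with a log2 difference of 0.07 ± 0.05 for tip minus nonvascular retina (adjusted p = 0.432, limma over all probes) and 0.20 ± 0.06 for stalk minus nonvascular retina (adjusted p = 0.022), a call that 10.7% of all probes had in that direction. With both probes averaged, the difference of tip from nonvascular retina was -0.08 and was not called (limma, adjusted p = 0.333). The direction for Pou4f2 therefore depends on the probe. In rank, 20% of all genes were further below nonvascular retina in tip than Pou4f2, whereas no other gene of the 10 had more than 0.886% of genes below it.

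Isl1 is a LIM-homeodomain factor that works with Pou4f2 in newborn ganglion cells and is also made in bipolar and some amacrine cells. It had log2 ratios of 0.98 to 1.92 in tip (median 1.41), 1.00, 0.76, 0.10 and 2.00 in stalk, and 3.57, 4.02 and 4.01 in nonvascular retina. Stalk replicate 4 lay above every tip array and stalk replicate 3 below every tip array, so the stalk range covered the tip range, and both lay below nonvascular retina. Isl1 was 5.36-fold lower in tip than in nonvascular retina (log2 difference -2.42 ± 0.33, limma adjusted p = 9.57e-05) and 7.47-fold lower in stalk (-2.90 ± 0.36, adjusted p = 3.77e-05). Tip minus stalk was 0.48 ± 0.30 (adjusted p = 0.439), and it was 0.19 without stalk replicate 3 (adjusted p = 0.803) and 0.83 without stalk replicate 4 (adjusted p = 0.0915).

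The second group holds the proteins of the axon. Mapt encodes tau, which binds and stabilises microtubules. The log2 ratios were 0.21 to 1.05 in tip (median 0.53), -0.04, 0.23, -0.13 and 0.17 in stalk, and 4.12, 4.34 and 3.94 in nonvascular retina. By the fitted ratios it had the largest difference of the 10 genes in both comparisons with nonvascular retina. It was 11.7-fold lower in tip (-3.55 ± 0.18, limma adjusted p = 2.31e-08) and 16.9-fold lower in stalk (-4.08 ± 0.19, adjusted p = 1.34e-08). Larger than these fitted values were the bound for Thy1 in stalk, given below, and the red channel differences of Thy1, Sncg, Isl1 and Nefl. Those of Gap43 in the deposited value table were larger too, so the gene with the largest difference depends on the processing. By the fitted ratios Mapt ranked 5th from the lowest of all genes tested in each comparison. Tip minus stalk was 0.53 ± 0.16 and did not pass the adjusted test (adjusted p = 0.108), and the lowest tip array lay inside the stalk range.

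Gap43, a growth cone protein of extending axons, was close to the reference in both vessel groups. Log2 ratios were -0.16 to 0.27 in tip (median 0.11), -0.06, 0.00, -0.01 and -0.08 in stalk, and 3.22, 2.97 and 2.84 in nonvascular retina. The spread within the stalk group was 0.04 (SD), the smallest of the 10 genes. Gap43 was well above background in red on 4 of 6 tip arrays, 1 of 4 stalk arrays and 3 of 3 nonvascular arrays, so its low values in the vessel samples sit at the limit of detection. Its fitted difference from nonvascular retina was -2.94 ± 0.11 in tip (limma, adjusted p = 2.22e-09) and -3.05 ± 0.11 in stalk (adjusted p = 2.02e-09), and its size depends on how signals near background are handled: in the deposited value table it was -4.39 in tip and -4.75 in stalk. Tip minus stalk was 0.11 ± 0.10 (adjusted p = 0.606), and the sign of that difference turned under 2 other ways of processing, at -0.02 with median centring and -0.03 with array brightness in the fit.

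Nefl and Nefm encode the light and medium subunits of neurofilaments, which set the calibre of axons. Nefl had log2 ratios of 1.47 to 3.28 in tip (median 2.81), 1.71, 1.46, 1.19 and 3.06 in stalk, and 5.29, 5.92 and 5.66 in nonvascular retina. One tip array, replicate 4, lay at the level of the lower stalk arrays, and stalk replicate 4 lay among the higher tip arrays. Nefl was 7.54-fold lower in tip (-2.92 ± 0.42, limma adjusted p = 1.60e-04) and 13.7-fold lower in stalk (-3.77 ± 0.46, adjusted p = 3.35e-05) than in nonvascular retina, and tip minus stalk was 0.86 ± 0.39 (adjusted p = 0.267).

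Nefm behaved like Gap43 in the vessel samples. Its log2 ratios were 0.00 to 0.52 in tip (median 0.23), 0.15, 0.06, 0.08 and 0.15 in stalk, and 2.80, 2.66 and 2.20 in nonvascular retina. Both vessel groups lay in 1 narrow band and nonvascular retina well above it. The red signal of Nefm was 96.1 to 225 in tip and 92.7 to 105 in stalk, over local backgrounds of 52 to 56. Its low values in the vessel samples thus lie near background, although every spot was well above it by the flag. The differences were -2.31 ± 0.13 for tip minus nonvascular retina (limma, adjusted p = 4.65e-08), -2.44 ± 0.14 for stalk minus nonvascular retina (adjusted p = 5.19e-08) and 0.13 ± 0.12 for tip minus stalk (adjusted p = 0.597). In the deposited value table the stalk difference was larger, at -3.69.

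The third group lies at the cell surface or in the synapse. Thy1 encodes a surface glycoprotein held by a lipid anchor, and its promoter is widely used to label ganglion cells. Its brighter probe had log2 ratios of -0.69 to 0.63 in tip (median -0.14), -0.32, -1.16, -2.89 and -0.52 in stalk, and 2.21, 2.97 and 2.69 in nonvascular retina. Stalk replicate 3 stood 1.67 below its group mean and gave stalk the widest spread of the 10 genes (SD 1.17). Since the red spots were saturated on all 3 nonvascular arrays, at 65294 to 65296, the nonvascular level is only a lower bound. By the red signal after normalization with the green, Thy1 was at least 10.2-fold lower in tip, and at least 20.7-fold lower in stalk, than in nonvascular retina. The fitted log2 differences were -2.74 ± 0.47 for tip (limma, adjusted p = 5.49e-04) and -3.84 ± 0.50 for stalk (adjusted p = 6.18e-05). These are smaller than the bounds, which compare the normalized red signals and not the ratios. The green signal was higher on the nonvascular arrays, so the bounds hold for the normalized red signal and not for the ratio. From the red channel alone, normalized without the green, the log2 differences were -3.63 for tip and -4.64 for stalk.

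The other Thy1 probe was unsaturated on every array. Its log2 ratios were -1.10 to -0.38 in tip (median -0.73), -0.57, -0.98, -1.11 and -0.62 in stalk, and 1.31, 1.82 and 0.73 in nonvascular retina. It gave -2.01 ± 0.22 for tip minus nonvascular retina (adjusted p = 1.29e-05, limma over all probes) and -2.10 ± 0.23 for stalk minus nonvascular retina (adjusted p = 1.61e-05), where 16.2% and 18.1% of all probes were called lower. The probes parted between tip and stalk: the brighter probe differed by 1.099 ± 0.42 (adjusted p = 0.194 over genes) and the other by 0.09 ± 0.20 (adjusted p = 0.859 over probes). Without stalk replicate 3 the brighter probe's difference was 0.54.

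**Figure D2:**
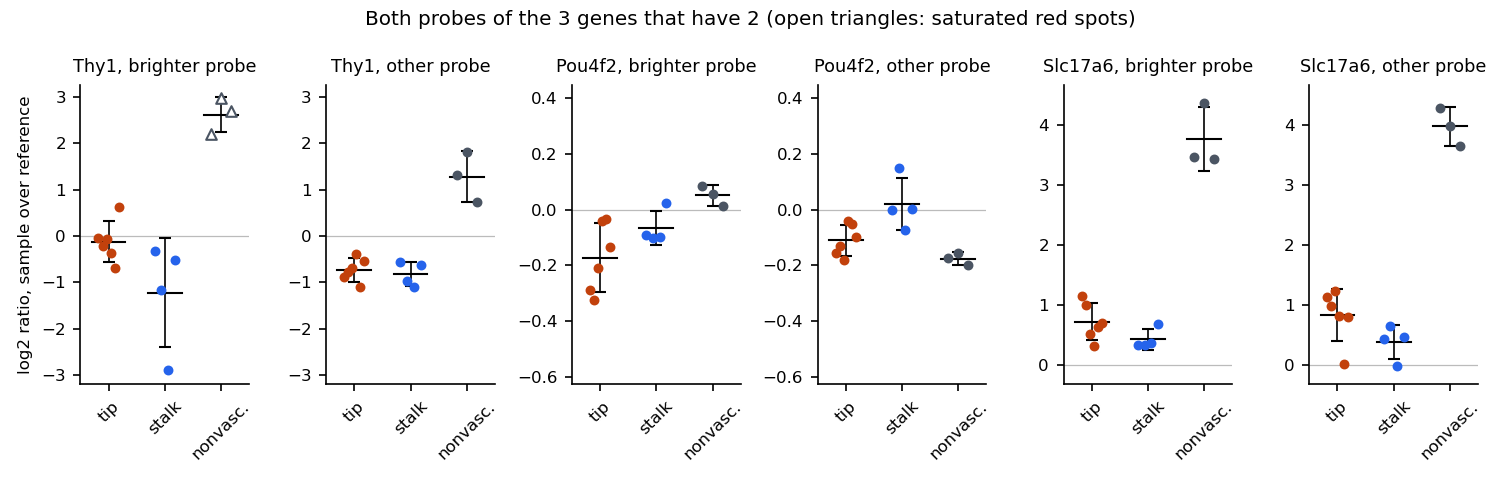
Log2 ratio of sample over reference (vertical axes, same scale for both probes of a gene) for both probes of Thy1, Pou4f2 and Slc17a6 on tip, stalk and nonvascular arrays, with group mean and SD. Both Thy1 and both Slc17a6 probes place nonvascular retina above the vessel samples, while the Pou4f2 probes disagree.

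Nrn1 encodes neuritin, a lipid-anchored protein that promotes the growth of neurites. It was well above background in red on every array, with red signals of 355 to 1156 on tip, 245 to 386 on stalk and 3058 to 5178 on nonvascular arrays. Its log2 ratios were -1.14 to -0.82 in tip (median -0.97), -1.57, -1.31, -1.71 and -1.46 in stalk, and 1.19, 1.26 and 0.78 in nonvascular retina. All 6 tip arrays lay above all 4 stalk arrays, and all nonvascular arrays above both. Nrn1 was 4.16-fold lower in tip (-2.06 ± 0.11, limma adjusted p = 4.74e-08) and 6.03-fold lower in stalk (-2.59 ± 0.12, adjusted p = 1.40e-08) than in nonvascular retina.

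Between tip and stalk, Nrn1 had a 1.45-fold higher level in tip (0.53 ± 0.10, adjusted p = 0.0171 by limma). The difference kept its sign in all 27 alternatives, from 0.39 to 0.61, and its call in 21. The call was lost without stalk replicate 1 (limma, adjusted p = 0.0581) and without stalk replicate 3 (adjusted p = 0.0596). It was also lost when the brightness of the arrays was in the fit (adjusted p = 0.177), and the stalk arrays were dimmer than most of the tip arrays.

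Sncg, a member of the synuclein family that is abundant in ganglion cells, had log2 ratios of 1.86 to 2.20 in tip (median 2.01), 1.42, 1.30, 0.28 and 1.69 in stalk, and 4.50, 4.78 and 4.83 in nonvascular retina. As for Nrn1, the 3 groups did not overlap. It was 6.44-fold lower in tip (-2.69 ± 0.23, limma adjusted p = 1.82e-06) and 11.5-fold lower in stalk (-3.53 ± 0.25, adjusted p = 3.38e-07) than in nonvascular retina. Tip minus stalk was 0.84 ± 0.21 and fell short of the threshold (adjusted p = 0.0554). Stalk replicate 3 set much of that spread: without it the difference was 0.54 and was called (limma, adjusted p = 0.0328). It was called without stalk replicate 4 as well (1.015, adjusted p = 0.0277).

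Slc17a6 encodes a vesicular glutamate transporter, VGLUT2, which loads the synaptic vesicles of ganglion cells, and its promoters are shown above. Its brighter probe had log2 ratios of 0.33 to 1.16 in tip (median 0.68), 0.34, 0.34, 0.37 and 0.70 in stalk, and 3.47, 4.37 and 3.44 in nonvascular retina. The tip range covered the stalk range. Slc17a6 was 8.17-fold lower in tip (-3.03 ± 0.22, limma adjusted p = 3.57e-07) and lower in stalk as well (-3.32 ± 0.23, adjusted p = 3.04e-07). Its other probe gave -3.13 ± 0.24 and -3.58 ± 0.26 in these comparisons, so both probes agree within their errors.

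**Figure D3:**
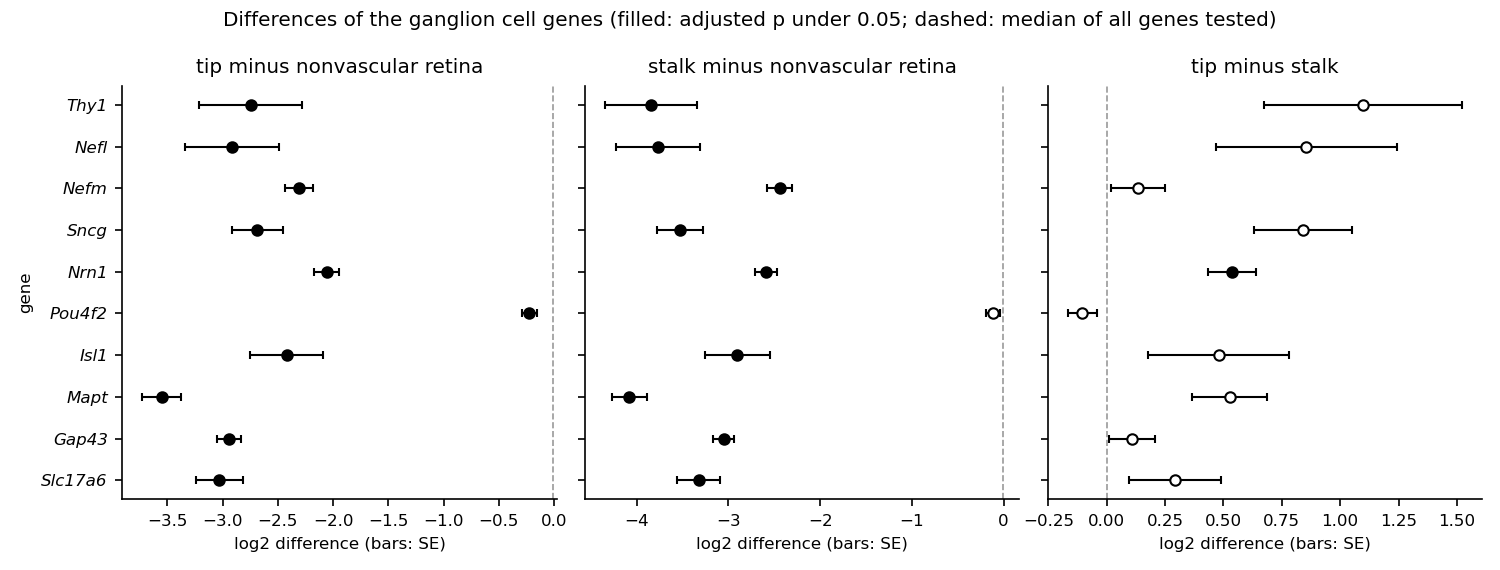
Log2 difference (horizontal axes, points) with its standard error (bars) for each of the 10 genes in the 3 comparisons; filled points have an adjusted p under 0.05 and the dashed line is the median of all genes tested. All but Pou4f2 lie more than 2 log2 units below nonvascular retina in both vessel groups, and the tip minus stalk differences lie between -0.10 and 1.099.

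The reference channel moved with part of these differences. The same reference RNA was on every array, yet the green signal of Sncg was 75.4 to 107 on tip, 74.4 to 95.3 on stalk and 206 to 429 on nonvascular arrays. For Isl1 it was 119 to 156 on tip, 98.6 to 122 on stalk and 205 to 443 on nonvascular arrays, and for the brighter Thy1 probe 1654 to 1950 on tip, 1819 to 1859 on stalk and 2617 to 3398 on nonvascular arrays. A higher green signal lowers the ratio on the nonvascular arrays. From the red channel alone, the Sncg difference was -4.88 for tip minus nonvascular retina and -5.92 for stalk minus nonvascular retina, and that of Isl1 was -3.90 for tip and -4.72 for stalk. In the deposited value table, which uses the processed signals of both channels, the Sncg differences were smaller than in the fit, at -1.50 for tip (limma, adjusted p = 0.0322) and -2.31 for stalk (adjusted p = 0.00378), and those of Isl1 were -2.05 and -2.45. The direction for Sncg held in all of these, while its size did not. Nrn1, with green signals of 397 to 482 on tip, 436 to 450 on stalk and 493.4 to 541 on nonvascular arrays, moved less, to -2.27 and -2.66. What raised the green signal was not tested.

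Within a group, some arrays were high or low for several of the 10 genes. Stalk replicate 3 was the lowest of the 4 stalk arrays for 6 of 10 genes, and stalk replicate 4 was the highest for 5. Tip replicate 1 was the highest of the 6 tip arrays for 4 genes and tip replicate 4 the lowest for 5. Of the 3 nonvascular arrays, replicate 2 was the highest for 6 genes and replicate 3 the lowest for 6. Nonvascular replicate 3 also had a higher mean log2 ratio over astrocyte genes, at 1.13 against 0.11 and 0.22 on the other nonvascular arrays. Over genes of Mueller glia and progenitors it had 2.68, against 1.65 and 1.18. Averaged over the 10 genes, the log2 ratio was 0.34 to 0.83 on tip arrays, -0.28 on stalk replicate 3 and 0.16 to 0.57 on the other stalk arrays, and 3.04 to 3.33 on nonvascular arrays. The low values of stalk replicate 3 were not confined to the 10 genes. Over the general neuronal genes described below its mean was 0.29, against 0.77 to 1.02 on the other stalk arrays. Over the other ganglion cell genes it was 0.16, against 0.58 to 0.69. It was not low over the endothelial genes (3.05 against 2.92 to 3.03) or the amacrine and horizontal genes (0.34 against 0.19 to 0.26). Stalk replicate 3 was also the dimmest array of all, at a median red signal of 98.1 over background, and the part of brightness in its low values was not tested.

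**Figure D4:**
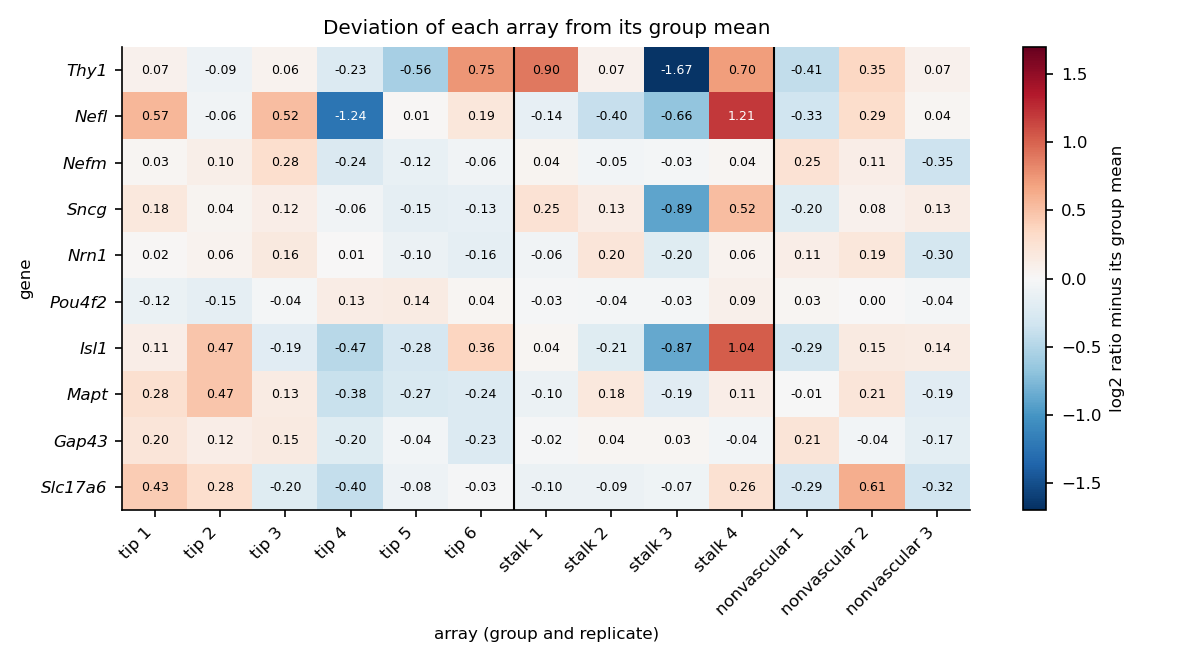
Deviation of each array (columns, by group and replicate) from its own group mean in the log2 ratio of each gene (rows), written in the cells and coloured from blue (below) to red (above). The widest deviations are those of Thy1 on stalk replicate 3 (-1.67), Nefl on tip replicate 4 (-1.24) and Nefl on stalk replicate 4 (1.21), while Nefm, Nrn1, Pou4f2 and Gap43 stay between -0.35 and 0.28.

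Other ganglion cell genes were described from a list of 31, of which 30 were tested. In tip, 20 of 30 were lower than in nonvascular retina and 2 were higher, where 16.8% of all genes were lower and 11.1% higher, with a median log2 difference of -0.90. In stalk, 19 were lower and 1 was higher, where 18.6% of all genes were lower and 11.2% higher, with a median of -0.97. The members called higher are thus no more than their share among all genes. Ina, the neurofilament partner alpha-internexin, was the lowest of them, at -3.46 ± 0.27 in tip (limma, adjusted p = 6.81e-07) and -3.78 ± 0.29 in stalk (adjusted p = 5.95e-07). Opn4, the melanopsin of light-sensing ganglion cells, was also lower, at -1.88 ± 0.14 in tip (adjusted p = 6.47e-07) and -1.92 ± 0.15 in stalk (adjusted p = 9.88e-07). Myt1, a zinc finger factor of differentiating neurons, was lower too, at -0.90 ± 0.05 in each (adjusted p = 2.90e-08 in tip and 5.00e-08 in stalk).

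The 4 RNA-binding genes Rbpms, Rbpms2, Elavl3 and Elavl4 were lower in both vessel groups, with medians of -2.10 in tip and -2.81 in stalk. Of 11 transcription factors, 5 were lower and 2 higher in tip, and 6 were lower and 1 higher in stalk, and so few called higher are near the 11.1% and 11.2% of all genes. The 2 that were higher in tip were the homeobox genes Dlx2 (1.04 ± 0.20, limma adjusted p = 0.00201) and Dlx1 (0.36 ± 0.11, adjusted p = 0.0322), which are known from embryonic interneurons and retinal progenitors. Dlx2 was also the one higher in stalk (0.67 ± 0.22, adjusted p = 0.0347), and 1 of its 3 nonvascular spots was marked as an outlier and left out. Atoh7, the factor that makes progenitors competent to become ganglion cells, had -0.31 ± 0.09 in tip, -0.26 ± 0.06 in stalk and -0.26 ± 0.13 in nonvascular retina (SD, n = 6, 4 and 3).

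Between tip and stalk, none of the 30 was called by limma in either direction. At an unadjusted p under 0.05, 4 of the 30 passed, of which 3 were higher in tip, and 5777 of all 32042 genes passed in either direction. The 4 are thus not a result about ganglion cell genes. The median difference of the 30 was 0.05. Within the list, medians were 0.50 for RNA-binding genes, 0.04 for transcription factors, 0.14 for axon and cytoskeleton genes and -0.03 for channels and others. The mean log2 ratio of the RNA-binding genes was -0.08 on stalk replicate 3 and 1.07 to 1.20 on the other stalk arrays. On tip arrays it was 1.02 to 1.49. The largest difference of the 30 was that of Cartpt, the precursor of a neuropeptide made by some ganglion and amacrine cells. It was -1.55 ± 0.40 (limma, adjusted p = 0.0602), chosen after its values were seen. Cartpt had 0.83 ± 0.51 in tip, 2.37 ± 1.04 in stalk and 3.14 ± 0.29 in nonvascular retina (SD, n = 6, 4 and 3), so its mean was lower in tip than in stalk, unlike that of 9 of the 10 genes. Of 8 general neuronal genes, 7 were lower in each vessel group than in nonvascular retina, where 16.8% of all genes were lower in tip and 18.6% in stalk. Among those called lower were Dcx (-2.58 ± 0.14 in tip and -2.83 ± 0.15 in stalk), Rbfox3 (-1.60 ± 0.12 and -1.80 ± 0.12) and Syp (-1.38 ± 0.09 and -1.36 ± 0.09). The lowest difference of that list was -3.58 in tip and -3.85 in stalk, near the -3.55 and -4.08 of Mapt.

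**Figure D5:**
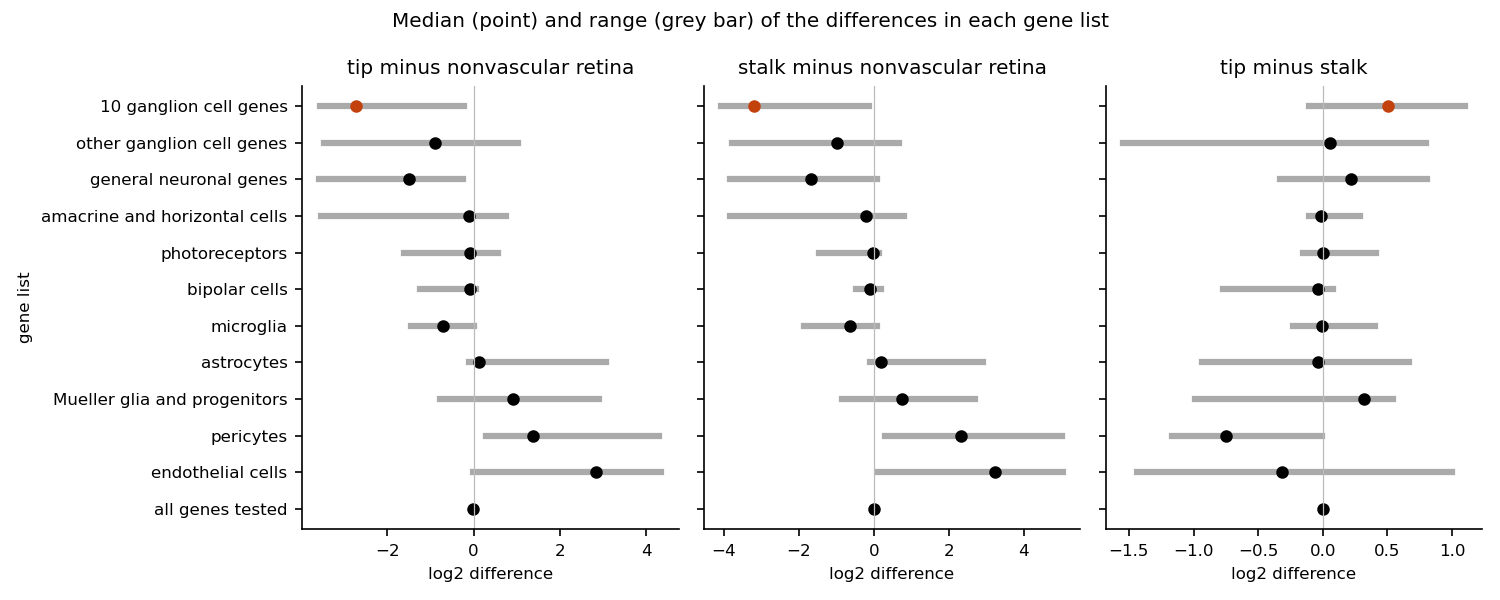
Median (point) and range (grey bar) of the log2 differences (horizontal axes) of the genes in each list (rows) in the 3 comparisons, with the 10 ganglion cell genes in orange; for all genes tested only the median is drawn. Of the lists drawn, the 10 genes have the lowest median against nonvascular retina, at -2.72 in tip and -3.19 in stalk. Single genes of other lists lie as low: the general neuronal range reaches -3.58 in tip and -3.85 in stalk. The amacrine and horizontal range reaches -3.54 and -3.83. Between tip and stalk the median of the 10 genes was 0.50.

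Genes of other retinal cells were counted in the same way, against 16.8% of all genes lower and 11.1% higher in tip, and 18.6% lower and 11.2% higher in stalk. With lists this short, counts near those shares are not a result about the cells. Of 16 amacrine and horizontal cell genes, 7 were lower and 1 higher in each vessel group. The lowest difference of that list was -3.54 in tip and -3.83 in stalk. Of 15 photoreceptor genes, 5 were lower in tip and 4 in stalk, and of 8 bipolar cell genes, 2 were lower in tip, while 3 were lower and 1 higher in stalk. Of 12 microglia genes, 8 were lower in tip and 6 in stalk. Of 11 genes of Mueller glia and progenitors, 6 were higher and 1 lower in tip, and 5 were higher in stalk, while the astrocyte list of 7 had 3 higher members in tip and 2 in stalk. Between tip and stalk, 1.32% of all genes were called lower in tip and 1.46% higher. In that comparison 8 of 12 pericyte genes and 4 of 18 endothelial genes were lower in tip, and 1 endothelial gene was higher. Glul, the glutamine synthetase of Mueller glia, was also lower in tip (-0.99 ± 0.13, limma adjusted p = 0.00147). No gene of the amacrine, photoreceptor, bipolar, microglia or astrocyte lists was called by limma between tip and stalk. The red signal summed over the pericyte list was 10704 to 16397 on tip arrays, 25743 to 29461 on stalk arrays and 3072 to 3203 on nonvascular arrays; its part in the tip and stalk values of the ganglion cell genes was not tested. The summed red signal of the 10 genes was 4705 to 8630 on tip, 1737 to 5577 on stalk and 61793 to 94299 on nonvascular arrays, the saturated Thy1 spots included.

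The genes whose pattern over the 13 arrays was nearest to each of the 10 were found by the root mean square difference of their centred log2 ratios among 16100 genes with a symbol outside the lists. Kcnn2, a calcium-activated potassium channel, and Dpysl3, a growth cone protein, were nearest to Nrn1, at 0.116 and 0.135 log2 units. Dpysl3 was higher in tip (0.76 ± 0.13 for tip minus stalk, limma adjusted p = 0.00913), and Kcnn2 had 0.51 ± 0.15 (adjusted p = 0.101). All nearest genes were chosen by their values on these same arrays, so their differences give no separate support to those of the 10 genes. Reln, the secreted protein reelin, and the vesicle protein Rab3a were nearest to Sncg, at 0.190 and 0.206. Rab6b and Mllt11 were nearest to Thy1, at 0.249 and 0.387, and Ndrg4 was nearest to Nefl, at 0.411.

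Among the genes that were flat across the vessel samples, Nefm was nearest to Rnf227 and the chemokine Cxcl14, at 0.134 and 0.140, and Gap43 to Tagln3 and Tppp3, at 0.170 and 0.209. Synpr, a synaptic vesicle protein, and Gria2, a subunit of AMPA-type glutamate receptors, were nearest to Mapt, at 0.274 and 0.289. Gria2 was also near Slc17a6, at 0.264, after the synaptic regulator Cplx1 at 0.223. Isl1 had Rprm and Mast1 at 0.294 and 0.300. The neighbours of Pou4f2 were the olfactory receptor gene Olfr32, at 0.0548, and Aoah, at 0.0661, and both had differences within 0.3 log2 units in every comparison.

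Another 2 probes carry a tau or neurofilament description without a name that the rule could match, and they were looked at after their values were seen. The tau probe gave -2.08 ± 0.29 for tip minus nonvascular retina and -2.47 ± 0.31 for stalk minus nonvascular retina (adjusted p = 1.20e-04 and 5.08e-05, limma over all probes), smaller differences than those of the Mapt probe, and 1 of its nonvascular spots was saturated. The neurofilament probe was dim in all groups, with red signals of 91 to 131 on tip, 75.5 to 94.3 on stalk and 101 to 124 on nonvascular arrays. Its differences were -0.09 ± 0.05 for tip (adjusted p = 0.203) and -0.15 ± 0.05 for stalk (adjusted p = 0.0353) against nonvascular retina.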

How the data were processed

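Agilent Feature Extraction 8.5.1.1 is named in the submitters' processing notes. Per the file headers, the deposited files hold for each spot the mean intensity and the median local background intensity of both channels, not normalized. The log10 ratio of the processed red over green signals stands in the same files, per the file headers, with signals adjusted for background and dye. The deposited value table holds linear ratios whose log10 lay within 0.001 of that log10 ratio for at least 99.943% of an array's probes, with 631 to 1555 probes missing and array medians of 1.058 to 1.153.

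Here the intensities were corrected with normexp (offset 50) and each array was loess-normalized, control spots having no weight, with limma (version 3.58.1) in R (version 4.3.3) and the R package data.table, version 1.17.8. Outlier spots were left out, repeated spots averaged, and the brightest probe stood for its gene. A gene was kept if its red signal was well above background on 3 or more of the 13 arrays. The mean of each of the 3 groups was estimated in 1 limma fit over the 13 arrays, and p-values of its moderated test were adjusted by Benjamini-Hochberg over the 32042 genes, or over 39354 probes where single probes are given. The threshold was an adjusted p of 0.05. The number of arrays limits the precision. The steps were tested on simulated data.

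Of 41174 probes, 22072 were named through their own accession, 135 through another accession and 1108 through their description with the RefSeq table of GRCm38.p6, and 17859 kept the name in the files. The genes, the lists and the rule for names were chosen with earlier results of these data known. Named were the 10 genes with all their probes, the 2 nearest genes of each, up to 3 called genes per direction of the other ganglion cell and the neuronal lists, and the first genes of the other lists, of which the text gives a part; 1 of the nearest genes is not reported here. Same-numbered samples of different groups correlated at -0.143 to 0.0823 in their deviations, so the numbers were not taken as pairs. The alternatives were other background corrections, normalizations, filters, signals and probe rules, the array brightness, a replicate block and each array left out in turn.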

Additional observations from a re-analysis of the deposited data

Results flagged for a closer look

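In 20 groups of 4 or 6 arrays searched for a single array far from the rest of its group, 3 values stood out, and chance alone gives about 1 in 20 such groups. Nefl on tip replicate 4 had a log2 ratio of 1.47, where the other 5 tip arrays lay between 2.65 and 3.28. The Pou4f2 value of stalk replicate 4 was 0.0237, against -0.103 to -0.0931 on the other stalk arrays, in a gene that was dim everywhere. Slc17a6 on stalk replicate 4 was 0.696, against 0.339 to 0.371 on the other stalk arrays. Without stalk replicate 4 the tip minus stalk difference of Nefl was 1.26 (limma, adjusted p = 0.0712), against 0.86 with all arrays, and without tip replicate 4 it was 1.103 (adjusted p = 0.111).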

How the results depend on the processing

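For the 9 genes other than Pou4f2, all 484 values against nonvascular retina under the 27 alternatives kept their sign and were called by limma (highest adjusted p = 0.0322). Thy1 had no value against nonvascular retina with saturated spots set to missing. The count of the 10 genes higher in tip than in stalk, 1 here, was 2 without background subtraction, 0 from the red channel alone, with median centring, the replicate block or array brightness, and 0 to 2 with single arrays left out; without stalk replicate 3 the 1 gene called was Sncg and no longer Nrn1. Nrn1 had adjusted p-values of 0.00535 to 0.177 over all alternatives, with 0.147 under median centring, 0.127 in the red channel and 0.0573 with the block. Pou4f2 lost its call in tip in 6 alternatives, with values of -0.72 to -0.08 over all 27, and its stalk minus nonvascular difference turned to 0.0386 with the mean of its probes. Gap43 turned to -0.0232 and -0.0347 for tip minus stalk with median centring and with brightness. The causes were not tested.

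Of the other ganglion cell genes, the number higher in tip than in nonvascular retina, 2 here, was 0 with the replicate block, 1 without or with plain background subtraction, in the Feature Extraction ratios, in the deposited table, with median centring, in the red channel, with only the 2 groups and with brightness, and 1 to 2 with single arrays left out. The number higher in stalk, 1 here, was 0 with median centring, with only the 2 groups and with the block, 2 in the red channel, and 0 to 1 with arrays left out. Between tip and stalk, where 0 were called, 1 was higher with only the 2 groups and with the block, 1 was lower in the Feature Extraction ratios and in the deposited table, and either count was 0 to 1 with arrays left out. The number of all genes called between tip and stalk, 891, was 252 with median centring, 225 with brightness, 449 with the replicate block and 446 (without stalk replicate 1) to 1602 (without tip replicate 6) with single arrays left out. The block changed no other call of the 10 genes.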
